A study of Mus musculus with 25 samples.

Results

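Blautia and Marvinbryantia are anaerobic genera of the family Lachnospiraceae that include acetogens, bacteria able to make acetate from hydrogen and carbon dioxide or from formate. Of the 1555 amplicon sequence variants (ASVs, distinct 16S rRNA gene sequences) in the data, 59 carried one of these names in the genus rank of their taxonomy, 40 of them Blautia and 19 Marvinbryantia. They held 4288 of 300831 counts, or 1.43%. The genera were chosen by name, with earlier results of these data known. In those results Marvinbryantia had been called between OVX+FMT and OVX+PBS when OVX+FMT replicate 4 was left out, so its values in that comparison, and those of Blautia beside it, are given as a description with no test.

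Fecal DNA of C57BL/6 mice was read as full-length 16S amplicons by PacBio sequencing, 5 libraries in each of 5 groups. The groups were OVX+FMT, OVX+PBS, OVX+GEX (spelled GES in the table and not written out in the labels), OVX, and Sham. OVX commonly stands for ovariectomy, FMT for a transfer of fecal microbiota and PBS for buffered saline, and a sham group has the surgery without removal. All groups but Sham carried the OVX label, and the labels give no age, dose, time, donor or cage. Male is entered as the sex of every sample, which does not go with ovariectomy. As nothing says that the libraries are of separate animals, the p-values reflect only how much these libraries varied.

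As background, hydrogen builds up when gut bacteria ferment fibre, and acetogens, sulfate reducers and methanogens are the groups known to use it up. Acetogens do so through the Wood-Ljungdahl pathway, in which carbon dioxide is reduced in steps, formate being an early intermediate, and joined into acetyl-coenzyme A. Blautia producta is a well-studied acetogen, while Marvinbryantia formatexigens, isolated from human feces, is an acetogen named for its need of formate. A 16S name is that of a relative in a reference database and does not show that a bacterium carries the pathway or ran it.

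Library totals ran from 8498 to 22404 counts with a median of 10123, and 5 libraries (OVX+FMT replicates 1 and 5, OVX+PBS replicate 1, Sham replicates 3 and 4) had 17367 or more while the other 20 had at most 11252. Where a genus had a count of 0, its share could still be up to 0.0134% to 0.0353%, which is 3 counts of the library total. Such limits, and the intervals below, cover counting error only. No ASV had a count of 1 in any library, so single reads may be missing from the data. The limit for a genus of many ASVs could then be higher. Lachnospiraceae as a whole took 12.8% ± 13.9 of counts in OVX+FMT, 14.3% ± 4.20 in OVX+PBS, 18.04% ± 8.79 in OVX+GEX, 18.5% ± 11.7 in OVX and 33.4% ± 8.71 in Sham (SD, n = 5 each). OVX+FMT replicate 4, at 37.3% Lachnospiraceae against 3.29% to 9.78% in the other OVX+FMT libraries, stood apart from its group, whose mean without it was 6.65% ± 2.70 (SD, n = 4).

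Blautia was found in all 25 libraries. By its mean share over the libraries it ranked as genus 14 of 110 named genera and as genus 4 of 23 in Lachnospiraceae. Its shares of library counts were 0.978%, 1.10%, 0.874%, 2.31% and 0.294% in OVX+FMT replicates 1 to 5. OVX+PBS libraries held 0.391%, 0.453%, 0.0913%, 1.10% and 0.125%. OVX+GEX libraries held 0.95%, 1.58%, 0.439%, 0.659% and 1.05%. The genus was thus near or below 1% in most libraries of these 3 groups, with OVX+FMT replicate 4 the 1 library of the 15 above 2%. In OVX the shares were 0.480%, 1.57%, 2.69%, 1.07% and 2.23%, and in Sham 0.678%, 2.89%, 0.679%, 1.71% and 2.12%. All 5 groups overlapped with one another.

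From the highest, the mean Blautia share was 1.62% ± 0.954 in Sham, 1.61% ± 0.883 in OVX, 1.11% ± 0.738 in OVX+FMT, 0.936% ± 0.435 in OVX+GEX and 0.432% ± 0.405 in OVX+PBS (SD, n = 5 each). Neighbours in that order differed by less than the larger of their SDs, except OVX+GEX and OVX+PBS, whose means were 0.504 percentage points apart with a larger SD of 0.435.

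**Figure D1:**
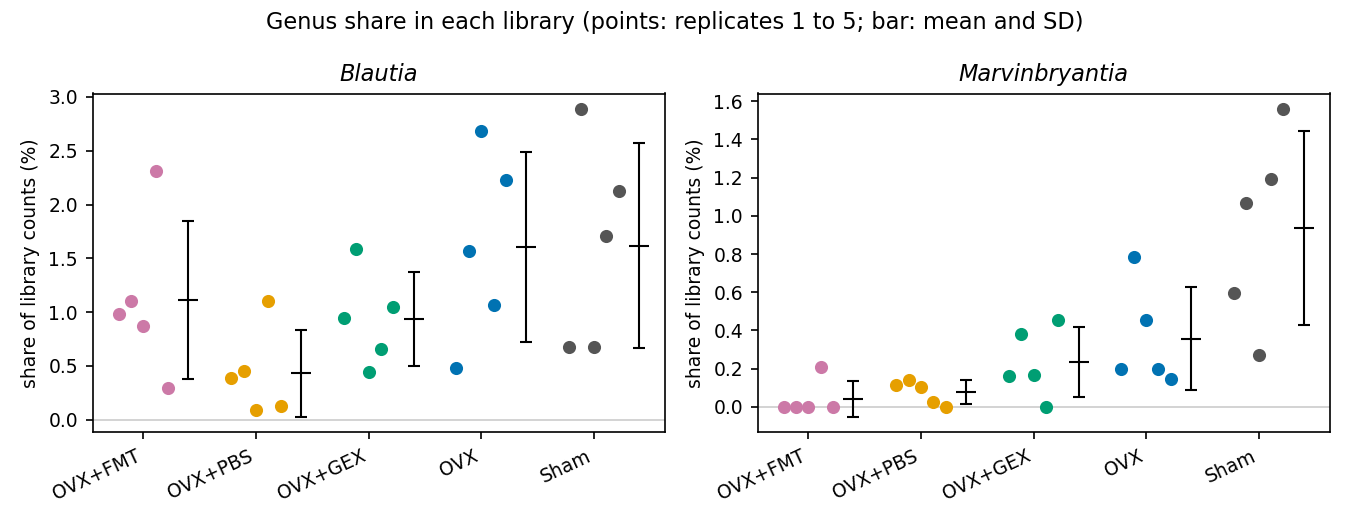
Share of each library's counts (y axis, percent, a scale of its own in each panel) taken by Blautia (left) and Marvinbryantia (right); points are replicates 1 to 5 from left to right in each group, and the bar is the mean with its SD, which can reach below 0. Blautia spanned 0.0913% to 2.89% with all groups overlapping, while Marvinbryantia was at 0 in 4 of 5 OVX+FMT libraries and averaged 0.937% in Sham.

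Marvinbryantia was scarcer and was found in 19 of 25 libraries. It held 1010 counts, and by mean share it ranked as genus 32 of 110. It was above 0 in all 5 libraries of OVX and of Sham, as were 46.9% and 61.7% of the 81 genera tested, while Blautia was so in every group, as were 46.9% of genera in OVX+FMT, 40.7% in OVX+PBS and 44.4% in OVX+GEX. In OVX+FMT it had 0 counts in replicates 1, 2, 3 and 5, which allows shares of up to 0.0134%, 0.0284%, 0.0298% and 0.0152%, and 20 counts (0.211%, Wilson 95% interval 0.137% to 0.326%) in replicate 4. Of the 81 genera tested, 14 (17.3%) were likewise at 0 in at least 4 OVX+FMT libraries. OVX+PBS libraries held 0.115%, 0.142%, 0.103%, 0.0234% and 0%, where 0.0234% stood for 2 counts. OVX+GEX libraries held 0.160%, 0.381%, 0.169%, 0% and 0.455%. Thus 4 OVX+FMT and 2 OVX+PBS libraries were at or below the limit that 3 counts set, the other libraries of both groups were above it, and OVX+GEX was at 0 in replicate 4 alone. OVX libraries held 0.196%, 0.786%, 0.457%, 0.198% and 0.145%, and Sham libraries 0.596%, 1.07%, 0.271%, 1.19% and 1.56%.

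The Marvinbryantia means were, from the highest, 0.937% ± 0.507 in Sham, 0.356% ± 0.269 in OVX, 0.233% ± 0.184 in OVX+GEX, 0.0767% ± 0.0616 in OVX+PBS and 0.0422% ± 0.0943 in OVX+FMT (SD, n = 5 each). Sham and OVX were 0.580 percentage points apart, more than their larger SD of 0.507. The other neighbours in the order differed by less than the larger SD. The OVX+FMT mean came from replicate 4 alone.

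The first comparison asked whether the genera differed between OVX and Sham. The mean Blautia share was 1.61% in OVX and 1.62% in Sham, a difference of -0.00861 percentage points (exact two-sided permutation p = 0.992). Marvinbryantia averaged 0.356% in OVX and 0.937% in Sham, a difference of -0.580 points (exact permutation p = 0.0635, adjusted p = 0.343 over 81 genera, of which 10 had an unadjusted p under 0.05 and 0 an adjusted one), and 3 of 5 OVX libraries lay below the lowest Sham library. EdgeR's quasi-likelihood test with Benjamini-Hochberg adjustment gave a log2 fold change of 0.46 (SE 0.64, adjusted p = 0.872) for Blautia and of -0.91 (SE 1.15, adjusted p = 0.872) for Marvinbryantia. Neither genus passed, nor did any of the 81 genera (0% called at an adjusted p under 0.05). At an unadjusted p under 0.05 edgeR placed 9 of 81 (11.1%), neither of them a member, and DESeq2 and limma called 0 of the 2 members.

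Sham libraries also held more Lachnospiraceae than OVX libraries, as given above, so the genera were set against their family. Blautia made up 10.5% ± 7.39 of the Lachnospiraceae counts in OVX and 4.60% ± 2.17 in Sham, a difference of 5.95 points (exact permutation p = 0.111, adjusted p = 0.466). Marvinbryantia made up 1.82% ± 0.433 in OVX and 2.64% ± 0.996 in Sham (SD, n = 5 each; adjusted exact p = 0.466). The mean share of Blautia within the family was thus higher in OVX, and neither difference passed. EdgeR's estimate was lower in OVX for Marvinbryantia and for 37 of all 81 genera (45.7%), with a median log2 fold change of 0.15. In Lachnospiraceae it was lower for 14 and higher for 8 of 22, with a median of -0.42.

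The number of ASVs within a genus was compared at an equal depth of 8498 reads of the whole library. Reads of the genus itself were not equalised, so richness is not a result separate from the share. Counts of Marvinbryantia were 14 to 87 in OVX libraries and 47 to 267 in Sham libraries. Marvinbryantia had 2.00, 6.99, 2.99, 1.0 and 1.0 expected ASVs in OVX libraries and 4.0, 7.0, 4.97, 6.76 and 7.0 in Sham libraries, a mean of 2.80 ± 2.48 in OVX and 5.95 ± 1.38 in Sham (SD, n = 5 each). Of the OVX libraries 4 lay below every Sham library and OVX replicate 2 lay among them. The difference of -3.15 ASVs had an exact permutation p of 0.0476 and an adjusted p of 0.321 over 81 genera, of which 12 had an unadjusted p under 0.05 and 0 an adjusted one. Blautia averaged 6.99 ± 3.53 expected ASVs in OVX and 10.1 ± 2.95 in Sham (exact permutation p = 0.167, adjusted p = 0.404).

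**Figure D2:**
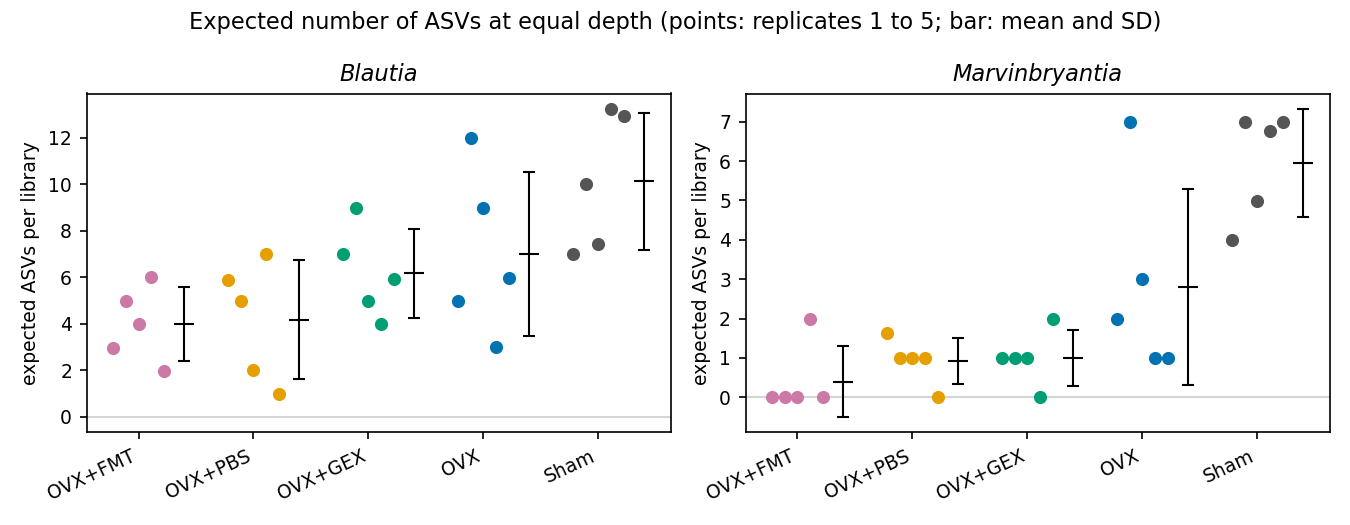
Expected number of ASVs (y axis) of Blautia (left) and Marvinbryantia (right) in 8498 reads of each library; points are replicates 1 to 5 from left to right and the bar is the mean with its SD, which can reach below 0. Marvinbryantia had at most 2.0 expected ASVs in OVX+FMT, OVX+PBS and OVX+GEX libraries, 1.0 to 6.99 in OVX libraries and 4.0 to 7.0 in Sham libraries.

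The second comparison asked whether the OVX+GEX libraries differed from the OVX libraries. Blautia averaged 0.936% in OVX+GEX and 1.61% in OVX, a difference of -0.671 points, and Marvinbryantia 0.233% in OVX+GEX against 0.356% in OVX, a difference of -0.123 points (exact permutation p = 0.159 and 0.429, adjusted p = 1.0 for both). EdgeR's log2 fold changes were -0.51 (SE 0.65, adjusted p = 0.936) for Blautia and -0.26 (SE 1.15, adjusted p = 0.979) for Marvinbryantia. As edgeR called 0 of 81 genera (0%) with 5 (6.17%) at an unadjusted p under 0.05, neither of them a member, and DESeq2 and limma called 0 of the 2 members, no difference between these groups was detectable for either genus. Both estimates were lower in OVX+GEX, as were those of 43.2% of all genera. Expected ASVs numbered 6.18 ± 1.92 in OVX+GEX and 6.99 ± 3.53 in OVX for Blautia, and 1.00 ± 0.707 and 2.80 ± 2.48 for Marvinbryantia (SD, n = 5 each; exact permutation p = 0.659 and 0.206, adjusted p = 1.0 for both). Within Lachnospiraceae, Blautia held 5.69% ± 3.12 in OVX+GEX and 10.5% ± 7.39 in OVX, and Marvinbryantia 1.61% ± 1.87 and 1.82% ± 0.433.

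In the third comparison the OVX+PBS libraries were set against the OVX libraries. The same OVX+PBS libraries stood in the earlier result known when the genera were chosen. The p-values here are therefore not independent of that choice. The mean share of both genera was lower in OVX+PBS, and no difference passed adjustment. The Blautia share had a mean of 0.432% in OVX+PBS, against 1.61% in OVX, and 4 of 5 OVX+PBS libraries lay below the lowest OVX library (0.480%), with OVX+PBS replicate 4 at 1.10% above it. The difference of -1.18 points had an exact permutation p of 0.0317 and an adjusted p of 0.459. The Marvinbryantia mean was 0.0767% in OVX+PBS, against 0.356% in OVX, and the groups did not overlap: all 5 OVX+PBS libraries, up to 0.142%, lay below all 5 OVX libraries, from 0.145%. It was the 1 genus of 81 (1.23%) that was lower in OVX+PBS without overlap. The difference of -0.280 points had an exact permutation p of 0.00794, the smallest that 5 against 5 libraries allow two-sided, and an adjusted p of 0.459 over 81 genera, of which 8 had an unadjusted p under 0.05 and 0 an adjusted one.

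The gap between those groups was narrow at this depth. The highest OVX+PBS library had 16 counts (Wilson 95% interval 0.0876% to 0.231%) and the lowest OVX library 14 counts (0.0865% to 0.244%). EdgeR's log2 fold changes were -1.72 for Blautia (SE 0.66, unadjusted p = 0.0149, adjusted p = 0.207) and -2.18 for Marvinbryantia (SE 1.21, unadjusted p = 0.0820, adjusted p = 0.369). Most genera had a lower estimate here, 52 of 81 (64.2%) with a median of -0.47, and 11 (13.6%) had an unadjusted p under 0.05, Blautia among them, while 0 (0%) passed adjustment. DESeq2 and limma on centred log-ratios also called 0 of the 2 members. Among 22 Lachnospiraceae genera, 15 of which had a lower estimate (median -0.61), Marvinbryantia had the estimate ranked 3 and Blautia that ranked 6 from the lowest.

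Richness, which is not independent of the share, differed in the same direction in that comparison without passing. Blautia had 4.18 ± 2.57 expected ASVs in OVX+PBS, against 6.99 ± 3.53 in OVX, and Marvinbryantia 0.926 ± 0.585 in OVX+PBS, against 2.80 ± 2.48 in OVX (SD, n = 5 each; exact permutation p = 0.190 and 0.0873, adjusted p = 0.884 for both). Within Lachnospiraceae, Blautia took 3.6% ± 4.20 in OVX+PBS, against 10.5% ± 7.39 in OVX (SD, n = 5 each, by exact permutation p = 0.0873, adjusted p = 0.692). Marvinbryantia took 0.509% ± 0.436 in OVX+PBS, against 1.82% ± 0.433 in OVX (by exact permutation p = 0.00794, adjusted p = 0.429).

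For OVX+FMT against OVX+PBS the genera stood on opposite sides. The Blautia mean was 1.11% in OVX+FMT, against 0.432% in OVX+PBS, a log2 fold change of 1.18 (SE 0.65) by edgeR and of 0.87 (SE 0.67) without OVX+FMT replicate 4. The Marvinbryantia mean was 0.0422% in OVX+FMT, against 0.0767% in OVX+PBS, a log2 fold change of -1.11 (SE 1.21) that rests on replicate 4, and without it all OVX+FMT libraries were at 0, so that no fold is given. Without OVX+FMT replicate 4 the mean differences were 0.380 points for Blautia and -0.0767 points for Marvinbryantia, against 0.679 and -0.0345 with it. The median over all 81 genera was 0.62 here, 33.3% had a lower estimate in OVX+FMT, edgeR called 0 (0%), and 12 (14.8%) had an unadjusted p under 0.05. As a share of Lachnospiraceae, Blautia made up 10.8% ± 3.59 in OVX+FMT, against 3.6% ± 4.20 in OVX+PBS (SD, n = 5 each). Since the OVX+PBS libraries also stand in the comparison with OVX, the values of both comparisons share them.

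**Figure D3:**
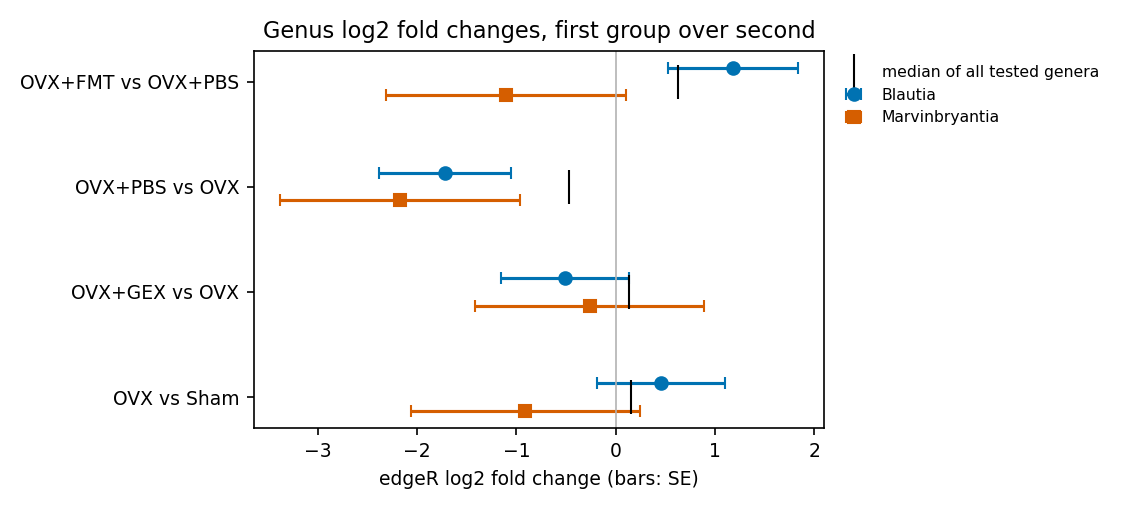
EdgeR log2 fold changes (x axis, first-named group over second) of Blautia (circles) and Marvinbryantia (squares) in 4 comparisons, with SE as bars and the median over all 81 genera as a vertical tick. Both genera had estimates below the median in OVX+PBS against OVX (-1.72 and -2.18 against -0.47), and none passed adjustment in the 3 comparisons tested. The Marvinbryantia value of OVX+FMT against OVX+PBS rests on OVX+FMT replicate 4.

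The species names of the Blautia ASVs divided the genus into 6 parts. Blautia hominis, a species known from human feces, took 1694 of 3278 Blautia counts (51.7%) over 11 ASVs. Blautia glucerasea, first isolated from dog feces and named for breaking down glucosylceramides, took 594 (18.1%) over 10 ASVs, and the acetogen Blautia producta 452 (13.8%) over 7. Blautia argi, described from dog feces, held 389 counts (11.9%), Blautia faecicola 126 (3.84%) and Blautia luti, a human gut species, 23 (0.702%), over 7, 2 and 3 ASVs. All 19 Marvinbryantia ASVs were named Marvinbryantia formatexigens. Blautia hominis was the most abundant Blautia name in 19 of 25 libraries.

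Blautia hominis was present in every library and varied most in OVX. It held 0.799%, 0.550%, 0.745%, 0.116% and 0.258% in OVX+FMT, and 0.0919%, 0.151%, 0.0457%, 0.678% and 0.125% in OVX+PBS. OVX+GEX libraries held 0.451%, 0.692%, 0.158%, 0.459% and 0.706%, OVX libraries 0.0267%, 0.542%, 1.83%, 1.01% and 1.92%, and Sham libraries 0.431%, 0.902%, 0.403%, 0.844% and 0.563%. The 3 libraries above 1% were all OVX, and OVX replicate 1 was the lowest of all 25. In a species-level edgeR fit, chosen after the values were seen, the log2 fold change was -2.31 for OVX+PBS against OVX (SE 0.84, adjusted p = 0.229 over 125 species names) and 0.96 for OVX against Sham (SE 0.81, adjusted p = 0.840).

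Blautia producta followed another pattern and was present in 14 libraries. In OVX+FMT it had 92 counts in replicate 4, 0.970% of the library (Wilson 95% interval 0.792% to 1.19%), and 0 in the other 4. It was above 0 in 2 of 5 OVX+PBS libraries, at 0.138% and 0.0467%, and in 3 of 5 OVX+GEX libraries, at 0.207%, 0.241% and 0.0225%. In OVX it held 0%, 0.244%, 0.0979%, 0% and 0.0207%, and in Sham 0.175%, 0.85%, 0.190%, 0.223% and 0.563%. The Sham libraries were thus all positive, and OVX replicate 2 lay within their range while the other 4 OVX libraries lay below it. Its log2 fold change was -2.44 for OVX against Sham in the species-level edgeR fit (SE 1.74, adjusted p = 0.840), so the difference did not pass. As a part of Blautia counts summed over a group, the name made up 4.76% in OVX and 22.6% in Sham.

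**Figure D4:**
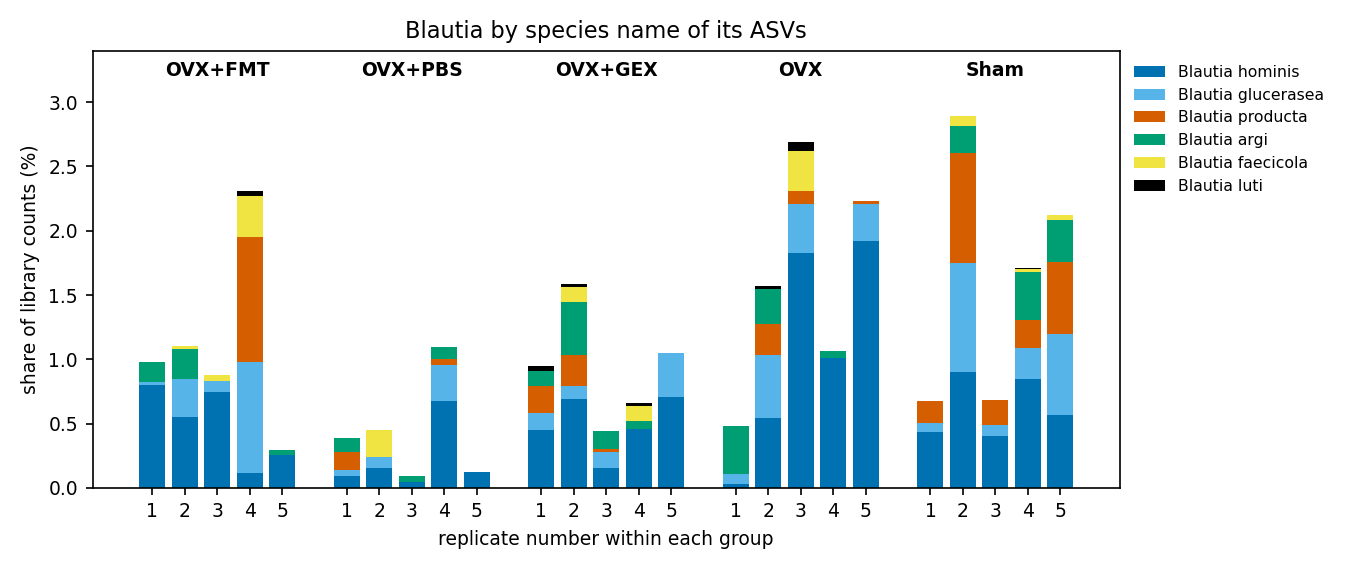
Share of library counts (y axis, percent) taken by each Blautia species name, stacked, in the 25 libraries by group and replicate number (x axis). Blautia hominis led in 19 libraries; Blautia producta was present in all 5 Sham libraries and, among OVX+FMT libraries, in replicate 4 alone, at 0.970%.

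None of the 5 Blautia species names tested passed in any of the 3 comparisons by edgeR, where 0 of 125 species names (0%) passed and 10 (8%), 10 (8%) and 16 (12.8%) had an unadjusted p under 0.05 in OVX against Sham, OVX+GEX against OVX and OVX+PBS against OVX. Of the 6 member names tested, Marvinbryantia formatexigens included, 4, 4 and 6 had a lower estimate in these comparisons, against 52%, 43.2% and 64.8% of all names. Blautia luti was too sparse to be tested. DESeq2 and limma also called 0 member names.

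Blautia producta and Marvinbryantia occurred in overlapping sets of libraries. Both were present in 14 libraries and both were at 0 in 6, Marvinbryantia alone was present in 5, and Blautia producta alone in 0. The 6 libraries without either were OVX+FMT replicates 1, 2, 3 and 5, OVX+PBS replicate 5 and OVX+GEX replicate 4. They held 3.29% to 14.7% Lachnospiraceae. That range also takes in OVX+PBS replicate 4 (10.2%), OVX+GEX replicate 3 (13.6%) and OVX replicate 5 (10.5%), where both were present. Blautia producta had 4, 2 and 2 counts there, and Marvinbryantia 2, 15 and 14. The other libraries with both held 18.8% Lachnospiraceae or more. The part of the family share in this was not tested. The lack of libraries with Blautia producta alone was not particular to this pair. Blautia glucerasea, present in 20 libraries, was also above 0 in every library with Blautia producta. Blautia hominis was present in all 25 libraries. No test was made. In OVX+FMT replicate 4 the Blautia make-up also differed from the other libraries of its group: Blautia hominis held 5.02% of Blautia counts there and 50.0% to 87.9% in the other 4, while Blautia producta held 42.01% and Blautia glucerasea 37.4%.

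At the level of single ASVs the members were mostly rare. Of the 40 Blautia ASVs 15 (37.5%) were seen in 1 library, as were 10 of 19 Marvinbryantia ASVs (52.6%), against 39.1% of all 1555 ASVs. The ASVs seen in 1 library held 3.78% of Blautia and 8.51% of Marvinbryantia counts. The leading Blautia ASV, ASV 39, named Blautia hominis, was seen in 20 libraries and held 35.6% of the genus. It had 179, 58, 73, 0 and 51 counts in OVX+FMT, 11, 9, 0, 55 and 11 in OVX+PBS, 39, 52, 12, 39 and 38 in OVX+GEX, 0, 0, 141, 96 and 176 in OVX, and 15, 7, 15, 90 and 0 in Sham. The high OVX values of Blautia hominis in replicates 3, 4 and 5 came for the most part from this ASV. Its edgeR log2 fold change was 2.35 for OVX against Sham (SE 1.52, adjusted p = 0.592 over 379 ASVs) and -2.51 for OVX+PBS against OVX (SE 1.53, adjusted p = 0.36).

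ASV 173, also named Blautia hominis, was distributed differently. It had 0 counts in all OVX+FMT and OVX+GEX libraries, 9, 0, 4, 3 and 0 in OVX+PBS, 3, 21, 0, 0 and 0 in OVX, and 0, 0, 51, 62 and 47 in Sham. It was highest in 3 Sham libraries, of which Sham replicate 4 had 62 counts of it beside 90 of ASV 39, and Sham replicate 5 had 47 counts of ASV 173 and 0 of ASV 39. ASV 228, of the same name, had 0 counts in all 5 OVX+PBS libraries. ASV 88, named Blautia glucerasea, was seen in 19 libraries, all 5 Sham libraries among them, with 7 to 67 counts in Sham. ASV 127 held most of the Blautia producta counts, 291 of 452, and was seen in 12 libraries.

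The leading Marvinbryantia ASVs shared the genus more evenly. ASV 148 (23.6% of the genus, 9 libraries), ASV 181 (18.9%, 9 libraries), ASV 214 (14.5%, 6 libraries) and ASV 220 (13.96%, 7 libraries) were each absent from at least 1 group. Most ASVs were, as only 13.1% of all 1555 ASVs and 7.88% of other Lachnospiraceae ASVs were seen in every group. In OVX+PBS no counts of ASV 148 or ASV 214 were found, and in OVX+FMT none of ASV 181, ASV 214 or ASV 220. ASV 460 was seen in 4 Sham libraries, with 6, 28, 8 and 6 counts, and in no library of another group, where the counts allow up to 0.0134% to 0.0353% a library.

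**Figure D5:**
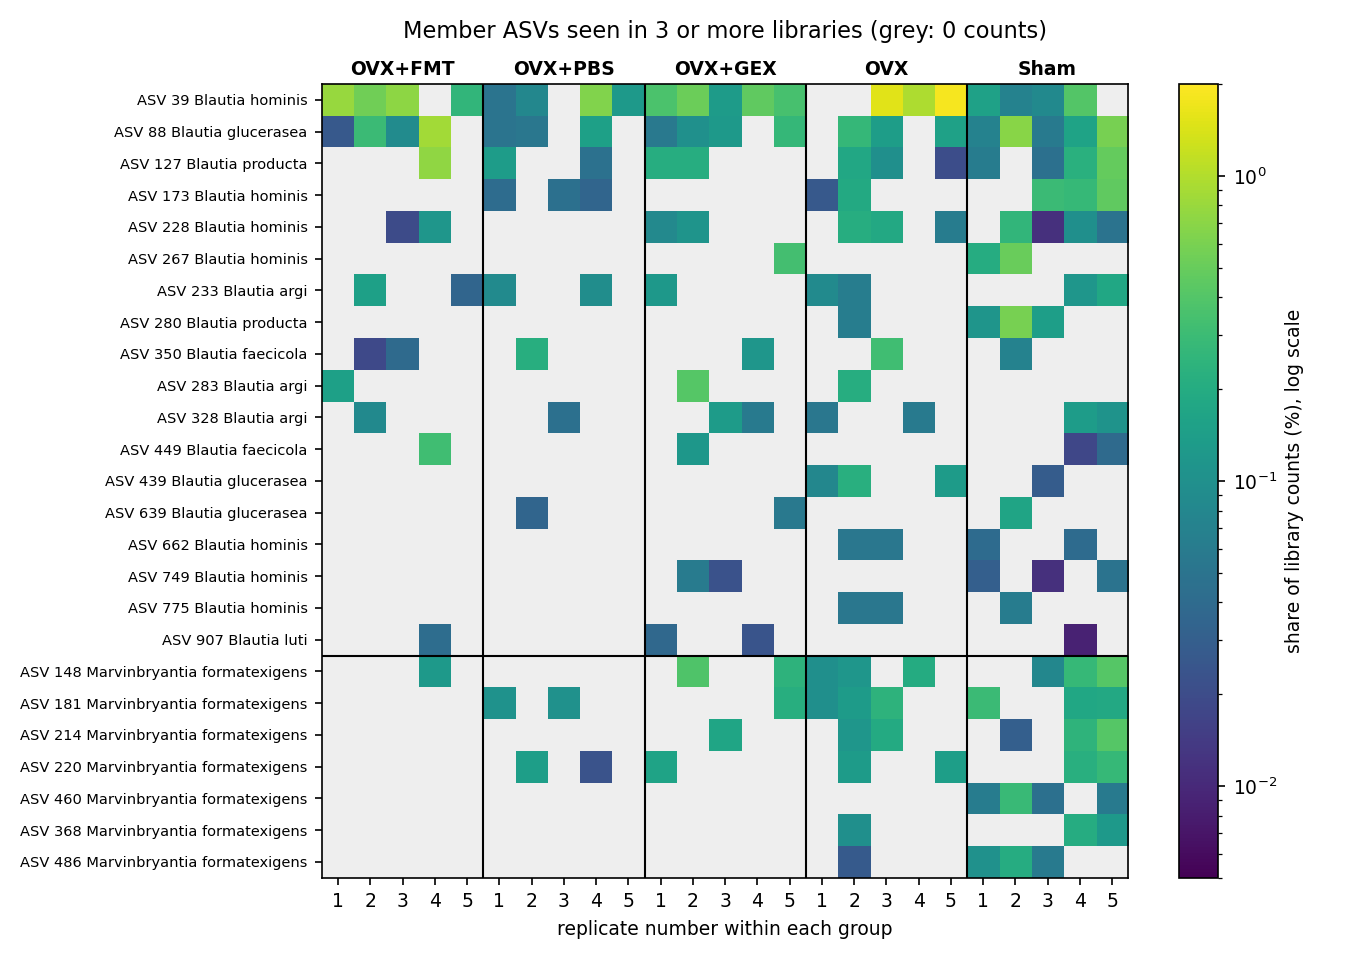
Share of library counts (colour, percent, log scale; grey is 0 counts) of the 25 member ASVs seen in at least 3 libraries, 18 of Blautia above the horizontal line and 7 of Marvinbryantia below it, in the 25 libraries by group and replicate number (x axis). ASV 39 crosses all groups, whereas the Marvinbryantia ASVs fill mostly the Sham and OVX columns.

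Over a whole group, Marvinbryantia was represented by 2 ASVs in OVX+FMT, 3 in OVX+PBS, 4 in OVX+GEX, 8 in OVX and 16 in Sham. Of the 16 Sham ASVs 9 (56.2%) were seen in no other group, against 27.9% of all ASVs and 35.2% of other Lachnospiraceae ASVs in Sham. In OVX these were 2 of 8 (25%), against 18.03% of all. An ASV seen in 1 library is necessarily in 1 group, and 10 of 19 Marvinbryantia ASVs (52.6%) were such, against 39.1% of all. Sham also held 634 of the 1010 Marvinbryantia counts. The 6 ASVs that OVX and Sham shared were 75.0% of the OVX and 37.5% of the Sham set, where over all ASVs these shares were 63.1% and 49.3%. With 2 to 4 ASVs in each of the other groups, their overlaps are too small to read. Blautia counted 11 ASVs in OVX+FMT, 12 in OVX+PBS, 19 in OVX+GEX, 19 in OVX and 28 in Sham, with 6 of 40 (15.0%) seen in all groups, against 13.1% of all ASVs. OVX and Sham shared 14 of them, 73.7% of the OVX and 50.0% of the Sham set. Of the 28 Blautia ASVs in Sham 8 (28.6%) were seen in no other group, against 27.9% of all ASVs. No test was made of these shares. These group sets are unequal in depth, as 2 Sham and 2 OVX+FMT libraries were among the 5 deepest.

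Of the 59 member ASVs, 12 had at least 3 counts in at least 5 libraries and were tested, 8 of Blautia and 4 of Marvinbryantia. They held 75.6% of the member counts. EdgeR called 0 of the 12 in each of the 3 comparisons, against 0 of 379 ASVs (0%). At an unadjusted p under 0.05 stood 0 of 12 for OVX against Sham (65 of 379, 17.2%), 1 for OVX+GEX against OVX (73, 19.3%) and 3 for OVX+PBS against OVX (94, 24.8%). The 1 was ASV 173 (adjusted p = 0.202), and the 3 were ASV 148, ASV 214 and ASV 228 (adjusted p = 0.127 for each), all at 0 counts in the first-named group, so that no fold is given. The unadjusted counts of 1 and 3 are read against those shares over all ASVs, and no other tool was run on ASVs. Lower estimates were had by 9 of 12 member ASVs for OVX against Sham (56.5% of all ASVs), by 8 for OVX+GEX against OVX (50.4%) and by 11 for OVX+PBS against OVX (62.3%). For OVX+FMT against OVX+PBS, given with no test, 4 of 12 were lower (35.1% of all ASVs) and ASV 214 was at 0 in both groups.

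The genera whose shares ran most like those of the members over the 25 libraries were named by the Spearman correlation, as a description. The points share groups, depth and a common total, so a high value of one genus lowers the others. For Marvinbryantia these were Lachnoclostridium (0.81), a broad genus of the same family, Schaedlerella (0.78), a mouse gut genus of that family, and [Clostridium] (0.78), a name placed in Oscillospiraceae here. On centred log-ratios the correlations were 0.73, 0.69 and 0.66. For Blautia they were Rossellomorea (0.64), a genus of Bacillaceae with counts in 6 libraries, Schaedlerella (0.61) and Marvinbryantia (0.58), and on centred log-ratios 0.30, 0.44 and 0.32. The median over all genera tested was 0.18 for Marvinbryantia and 0.15 for Blautia. As shares of Lachnospiraceae counts, Blautia and Marvinbryantia had a correlation of -0.01.

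Lachnoclostridium showed the same order at the upper end as Marvinbryantia, with 1.32% ± 2.37 in OVX+FMT, 1.29% ± 1.16 in OVX+PBS, 3.17% ± 3.53 in OVX+GEX, 3.47% ± 3.87 in OVX and 6.80% ± 3.46 in Sham (SD, n = 5 each). Of 20 other genera listed for acetogens, sulfate or sulfite reducers and their relatives, or methanogens, 2 had counts, Eubacterium and Clostridium, and 18 had 0, Desulfovibrio and Methanobrevibacter among them. The genera were matched by name. As primers and database were not given, 0 counts do not show that such microbes were absent. Eubacterium and Clostridium each have some acetogenic species and many others. By edgeR neither passed in the 3 comparisons. Eubacterium took 0.893% ± 0.196 in OVX+GEX, against 2.89% ± 2.09 in OVX (SD, n = 5 each; log2 fold change -1.45, SE 0.57, adjusted p = 0.272), and Clostridium 0.0646% ± 0.0925 in OVX, against 0.330% ± 0.216 in Sham (log2 fold change -2.02, SE 1.42, adjusted p = 0.789). For OVX+PBS against OVX the edgeR log2 fold changes were -2.73 for Clostridium (SE 1.56, adjusted p = 0.381) and -0.06 for Eubacterium (SE 0.56). The remaining ones were 0.29 for Eubacterium in OVX against Sham (SE 0.56) and 1.19 for Clostridium in OVX+GEX against OVX (SE 1.40).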

How the data were processed

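The authors deposited 1 table of whole-number read counts per ASV and library with a taxonomy of 7 ranks, made out of a BIOM file per the file headers. Subread appears in the submitters' processing notes without version or role, while denoiser, primers, filters and database were not given in the sources read. Stool DNA was prepared with a commercial kit, per the labels' protocols. Of the counts above 0, 0 were 1 and 464 were 2. Columns were matched to titles by name, 5 of them spelled OVX+GES for OVX+GEX.

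Genus counts, the sums over their ASVs, were tested with edgeR 4.0.16 (quasi-likelihood, TMM, R 4.3.3) in 1 fit of 25 libraries, for genera with at least 3 counts in at least 5 libraries (81), and likewise for ASVs (379). Adjusted p-values are Benjamini-Hochberg values over all features tested, with a threshold of 0.05. SEs were taken from the F statistic. Shares and rarefied ASV numbers were compared by exact two-sided permutation over libraries. Scripts were tested on simulated data. Alternatives were TMMwsp, plain totals, DESeq2 1.42.0, limma 3.58.1 on centred log-ratios (0.5 added to each count), other filters, other denominators, the replicate number as a block and each library left out.

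The members, lists and tests were chosen with earlier results of these data known. Named were both genera, all species names, the 5 ASVs of each genus with the highest mean share and any past the threshold, and the 3 genera most alike. The species-level fit and the split by depth were added after seeing the data.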

Additional observations from a re-analysis of the deposited data

Results flagged for a closer look

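Within a group of 5 libraries, a library was looked at again when its gap to the nearest other took up more than 0.71 of the group's range; 9 such values were found among 49 groups checked. Chance gives about 1 in 20 for normally spread values, a rate that does not apply to sparse counts: in 7 of the 9 the other 4 libraries were all at 0, which always exceeds the limit. OVX+FMT replicate 4 gave 5 of them. It held 0.211% Marvinbryantia with 2 expected ASVs, and 0.970% Blautia producta and 0.0422% Blautia luti, where the other 4 libraries had 0 counts of each, and 0.316% Blautia faecicola, where the others reached 0.0397%. Its total of 9484 counts was the lowest of its group, and its Lachnospiraceae share of 37.3% the highest; their part in these values was not tested.

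Blautia faecicola stood out in OVX+PBS replicate 2 (0.213%) and in OVX replicate 3 (0.316%), with 0 counts in the other 4 libraries of each group. Blautia hominis stood out in OVX+PBS replicate 4 (0.678%, against 0.0457% to 0.151% in the other 4). Blautia luti stood out in Sham replicate 4, where its 0.00893% came from 2 counts.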

How the results depend on the processing

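In the 3 comparisons tested, neither genus and no member ASV passed under any alternative run, and for OVX+FMT against OVX+PBS no test was made. For Blautia in OVX against Sham, the share difference of -0.00861 points turned to 5.95 points of Lachnospiraceae counts and to 0.36 on centred log-ratios, and ran from -0.279 to 0.310 with each library left out. Its edgeR log2 fold change of 0.46 was -0.0076 with plain totals, under which the median over all genera was -0.22 in place of 0.15. For OVX+GEX against OVX that median was -0.03 in place of 0.13, and for OVX+PBS against OVX -0.66 in place of -0.47. For OVX+GEX against OVX, leaving out each library gave -1.81 to 0.434 expected Blautia ASVs, -0.79 to 0.25 for the Marvinbryantia log2 fold change (above 0 without OVX+GEX replicate 4, OVX replicate 2 or OVX replicate 3) and -0.12 to 1.49 for that of Blautia producta. For OVX+PBS against OVX the Blautia producta fold change was -1.75 to 0.75. The other differences and fold changes of both genera and of Blautia hominis kept their direction. Their size moved: without OVX replicate 2 Marvinbryantia differed by -0.0159 points (-0.123 with it) and -0.749 expected ASVs (-1.80) for OVX+GEX against OVX, and by -0.172 points (-0.280) and -0.823 ASVs (-1.87) for OVX+PBS against OVX, and Blautia by -1.56 ASVs (-2.81) there. Without OVX replicate 3 the Blautia share differed by -0.401 points (-0.671) for OVX+GEX against OVX. For OVX+PBS against OVX, the edgeR log2 fold change with each library left out ran from -2.46 to -1.02 for Blautia (-1.02 without OVX replicate 5, -1.10 without OVX replicate 3, lowest adjusted p = 0.101) and from -2.56 to -1.48 for Marvinbryantia (lowest adjusted p = 0.370).

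In the 20 libraries under 12000 counts, a split chosen after seeing the data, Marvinbryantia differed by -0.718 points for OVX against Sham (adjusted exact p = 0.321) and by -0.289 for OVX+PBS against OVX (adjusted exact p = 0.551), and Blautia by -1.17 for OVX+PBS against OVX (adjusted exact p = 0.571). With the replicate number as a block, the edgeR log2 fold changes for OVX+PBS against OVX were -2.04 for Blautia and -2.03 for Marvinbryantia, and that of Blautia producta in OVX+GEX against OVX turned to -0.26. Deviations of same-numbered libraries correlated at -0.286 to 0.204 and in no comparison was every pair over 0.1 (4 of 5 were for OVX+GEX against OVX, with 3 libraries correlating best with their own number), so the number is not taken as a pairing. Over all genera edgeR called 0 in each of the 3 comparisons tested; DESeq2 called 1 for OVX against Sham and 1 for OVX+PBS against OVX, limma 1 for OVX against Sham and 1 for OVX+GEX against OVX, and edgeR without a filter 1 for the last. The causes were not tested. At these depths a share under 0.0134% to 0.0353% may go unseen.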
